A study of Mus musculus with 4 samples.

Results

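Expression of 10 genes of the p53 pathway and of cell cycle arrest was followed in the mouse colon: *Trp53*, *Mdm2*, *Cdkn1a*, *Ccng1*, *Phlda3*, *Trp53inp1*, *Gdf15*, *Bax*, *Cdkn2a* and *Cdkn2b*. They were found on the arrays by gene name, and these 10 of 30214 named genes were read by 15 of 39429 probes. The colons came from male *Pla2g3*+/+ mice or littermates labelled *Pla2g3*-/-, with the gene of group III secreted phospholipase A2 disrupted, on a B6.129 background backcrossed for 3 generations. One group of each genotype received saline as vehicle, and another received azoxymethane (AOM), an alkylating colon carcinogen, at 10 mg/kg into the peritoneum once a week for 6 weeks. All mice were 42 weeks old at death, 28 weeks after the last AOM injection. Each of the 4 groups was 1 pool of RNA on 1 array, of 3 to 5 mice by the deposited description, and the sources differ on this number. The methods describe the tissue as whole descending colon, and the labels call that of the AOM groups colorectal cancer.

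p53, the product of *Trp53*, is a transcription factor that is stabilized when DNA is damaged or oncogenes are active, and it then switches on genes for cell cycle arrest, repair and cell death. Its activity is controlled largely by the stability of the protein, so its mRNA level need not follow it. The *Cdkn2a* locus feeds into the same pathway, since one of its products, p19Arf, restrains Mdm2, while the other, p16Ink4a, inhibits the cyclin D kinases Cdk4 and Cdk6 directly.

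Sequences of RefSeq promoters were set beside the members to show where p53 could be recognized in the DNA and how the separate starts of *Cdkn2a* differ. The table (GRCm38.p6) held 32851 windows, each of 250 bases before and 50 bases after a transcript start, and matched 9 of the 10 genes with 12 windows; *Trp53inp1* had none. The p53 half-site, a stretch of 10 bases whose consensus is its own reverse complement, so that one search covers both strands, was found in the windows of 5 genes, *Trp53*, *Mdm2*, *Cdkn1a*, *Ccng1* and *Bax*, and in 8.36% of all windows. A full site for the p53 tetramer is a pair of half-sites. An adjoining pair with at most 1 base off occurred in 29 windows (0.0883%), and those of *Cdkn1a* and *Ccng1* were among them. The 250 bases before the start are given 5′ to 3′ on the strand of the gene, with the half-sites and pairs in capitals. Both are given because they hold the closest matches, while the brightest probes of these genes differed by under 2-fold between the arrays, as described later.
Cdkn1a, upstream start, chr17:29090729-29090978, plus strand: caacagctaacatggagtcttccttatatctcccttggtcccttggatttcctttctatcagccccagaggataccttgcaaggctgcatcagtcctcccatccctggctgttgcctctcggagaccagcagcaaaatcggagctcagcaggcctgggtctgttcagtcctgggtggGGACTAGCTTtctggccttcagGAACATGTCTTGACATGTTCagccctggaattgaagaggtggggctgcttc
Ccng1, chr11:40755287-40755536, minus strand: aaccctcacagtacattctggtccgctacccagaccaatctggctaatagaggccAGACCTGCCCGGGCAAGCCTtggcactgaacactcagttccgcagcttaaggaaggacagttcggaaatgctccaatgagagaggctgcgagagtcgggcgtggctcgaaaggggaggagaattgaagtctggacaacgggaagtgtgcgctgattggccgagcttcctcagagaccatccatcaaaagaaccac
The capitals in the *Cdkn1a* window mark a half-site 73 to 64 bases before the start and a pair 51 to 32 bases before it. In the *Ccng1* window they mark a pair 195 to 176 bases before the start. A match is a description of the letters, and binding was not measured here. DNA outside these windows was not searched, so a window without a match does not show that the gene lacks a site.

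*Cdkn2a* is shown for another reason. Its 2 transcripts, for p19Arf and p16Ink4a, begin at separate promoters but share their last exons, and both array probes carry the accessions of both transcripts. The array signal therefore cannot tell p16Ink4a from p19Arf. No p53 half-site was found in either window, and here the capitals mark each CG, the dinucleotide that DNA methylation acts on.
Cdkn2a, distal start, chr4:89294620-89294869, minus strand: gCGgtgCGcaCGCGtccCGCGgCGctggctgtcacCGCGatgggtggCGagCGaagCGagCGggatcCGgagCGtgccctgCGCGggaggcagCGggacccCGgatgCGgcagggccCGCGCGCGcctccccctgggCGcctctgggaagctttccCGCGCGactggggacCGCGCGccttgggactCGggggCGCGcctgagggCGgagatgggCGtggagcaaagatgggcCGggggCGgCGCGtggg
Cdkn2a, proximal start, chr4:89282193-89282442, minus strand: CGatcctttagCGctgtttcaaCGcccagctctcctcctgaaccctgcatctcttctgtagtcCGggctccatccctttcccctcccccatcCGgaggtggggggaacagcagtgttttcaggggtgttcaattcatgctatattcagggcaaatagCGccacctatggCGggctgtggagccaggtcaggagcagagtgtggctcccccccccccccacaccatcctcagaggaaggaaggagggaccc
The distal window held 40 CG, a number reached by 1.31% of all windows, whereas the proximal window held 7, a number reached by 46.3%. DNA methylation was not measured on these arrays.

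Levels are given as relative signal, the background-subtracted signal over the 75th percentile of the array, so that a value of 1 is the level of that percentile. They are compared between arrays for 1 probe, never between probes. Depending on the array, 64.8% to 69.4% of spots exceeded background clearly by the scanner software's own test ("well above background"), and none was saturated. With 1 array per group no difference has a p-value, and 2-fold served as the threshold of size. Feature Extraction, the scanner software, gives an error for each spot of about 10% for bright spots, or about 0.20 for a log2 difference between 2 arrays, which leaves out the spread between mice. Where a probe was well above background on 1 array only, its partner was replaced by the faintest signal that passed this test on the partner's array, or kept if higher, and the change is written as "at least". Of the 15 probes, 12 were well above background on all 4 arrays. The comparisons share arrays, so they are not independent of one another.

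The targeted gene was examined first. On the arrays, the signal of *Pla2g3* after AOM was not lower in the pool labelled *Pla2g3*-/- but 6.01-, 6.66- and 2.76-fold higher on its 3 probes. With vehicle it was 1.23- and 1.06-fold higher on 2 probes and at least 2.31-fold higher on the third. On the first 2 probes the relative signal in *Pla2g3*+/+ fell after AOM, from 0.531 to 0.232 and from 0.0839 to 0.0305. In the pools labelled *Pla2g3*-/- it rose, from 0.656 to 1.40 and from 0.0887 to 0.203. On the third it was higher after AOM in both genotypes. The paper reports that antibody staining for the protein was not seen in *Pla2g3*-/- colon. The exons removed in these mice are not given in the sources used here, so where the probes lie relative to the deletion is unknown. For this reason the pools are called labelled *Pla2g3*-/- throughout.

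**Figure D1:**
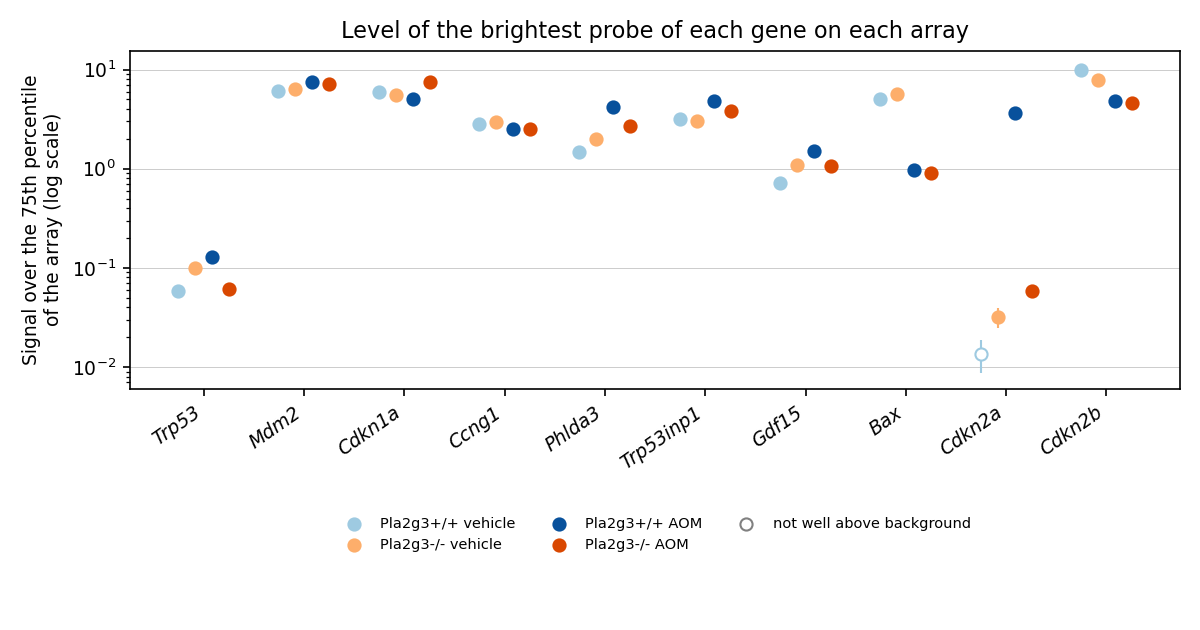
Relative signal (log scale) of the brightest probe of each of the 10 genes on the 4 arrays, with the error of Feature Extraction as bars, which are smaller than most points; open circles were not well above background. *Cdkn2a* stood at 3.62 in *Pla2g3*+/+ after AOM and at 0.0579 or less on the other arrays, and *Bax* stood near 1 on both AOM arrays and at 5.00 or more on both vehicle arrays.

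*Cdkn2a* had the largest difference of the 10 between AOM and vehicle in *Pla2g3*+/+ and between the genotypes after AOM. On its brighter probe (mm9 chr4:88920405-88920464) the relative signal in *Pla2g3*+/+ was 0.0137 with vehicle, not well above background, and 3.62 after AOM. It was 0.0321 with vehicle and 0.0579 after AOM in the pools labelled *Pla2g3*-/-. The *Pla2g3*+/+ AOM array was high and the other 3 were dim, though both arrays labelled *Pla2g3*-/- were well above background. The signal after AOM was at least 218-fold higher than with vehicle in *Pla2g3*+/+, and 15 of 21774 genes had a difference as large or larger. The same step in the pools labelled *Pla2g3*-/- was 1.80-fold. After AOM the signal was 62.5-fold lower in the pool labelled *Pla2g3*-/- than in *Pla2g3*+/+, and 65 of 21575 genes were as low or lower. The dimmer probe (mm9 chr4:88920543-88920602) was well above background on the *Pla2g3*+/+ AOM array alone, at 0.243 against 0.00367 to 0.00532 on the other 3. That probe gave a difference of at least 14.6-fold between AOM and vehicle in *Pla2g3*+/+ and of at least 16.6-fold between the genotypes after AOM. Both probes thus placed the gene on the same array.

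*Cdkn2b*, which encodes p15Ink4b, another inhibitor of the cyclin D kinases, is the neighbor of *Cdkn2a*, and their brightest probes lie 31811 bases apart on mm9. Its relative signal in *Pla2g3*+/+ was 9.84 with vehicle and 4.78 after AOM. The pools labelled *Pla2g3*-/- read 7.87 with vehicle and 4.62 after AOM. Both AOM arrays were below both vehicle arrays, whereas *Cdkn2a* was high on 1 of the AOM arrays. The log2 difference was -1.04 in *Pla2g3*+/+, just past 2-fold, and -0.77 in the pools labelled *Pla2g3*-/-. A second probe read 1.99 and 0.943 in *Pla2g3*+/+ and 1.32 and 0.930 in the other pools, with differences of -1.08 and -0.50. The call in *Pla2g3*+/+ was lost with quantile normalization, whether alone (-0.68) or after normexp background correction (-0.63), and without scaling (-0.02), and without scaling the difference in the pools labelled *Pla2g3*-/- was 0.08.

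**Figure D2:**
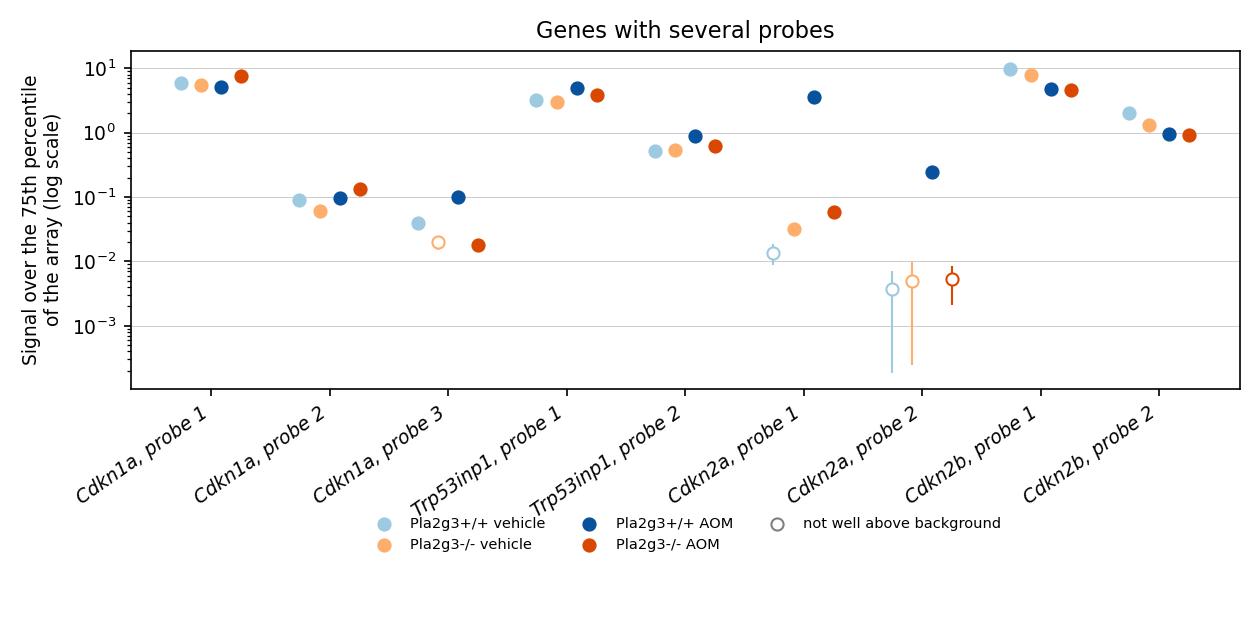
Relative signal (log scale) of each probe of the 4 genes with several probes on the 4 arrays, numbered from the brightest; open circles were not well above background, bars are the error of Feature Extraction, and a bar is cut where the error reaches the value. Both *Cdkn2a* probes were highest in *Pla2g3*+/+ after AOM, and so was the third *Cdkn1a* probe, at 0.0985, whereas the first *Cdkn1a* probe was highest, at 7.54, in the pool labelled *Pla2g3*-/- after AOM.

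*Trp53* itself was read by 1 probe (mm9 chr11:69404204-69404263), whose sequence lies in the part of the gene that codes for the end of the protein and is given since the level rests on it.
Trp53 probe: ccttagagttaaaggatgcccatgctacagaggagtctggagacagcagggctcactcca
The relative signal in *Pla2g3*+/+ was 0.0585 with vehicle and 0.130 after AOM, whereas in the pools labelled *Pla2g3*-/- it was 0.100 and 0.0607. The *Pla2g3*+/+ AOM array was the highest of the 4. The *Pla2g3*+/+ vehicle array and the AOM array labelled *Pla2g3*-/- were the lowest, and they differed by less than the error of either spot. The log2 difference of AOM over vehicle was 1.15 with an error of 0.23 in *Pla2g3*+/+. In the pools labelled *Pla2g3*-/- it was -0.72, or 0.12 without scaling. Accordingly, the level was 1.71-fold higher with vehicle and 2.14-fold lower after AOM in the pool labelled *Pla2g3*-/- than in *Pla2g3*+/+. The probe was dim on every array though well above background, and with normexp correction and quantile normalization together the differences were 0.57 in *Pla2g3*+/+ and -0.50 between the genotypes after AOM, which ended both calls. Quantile normalization alone kept both, at 1.17 and -1.002.

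*Mdm2*, the ubiquitin ligase that degrades p53 and is itself a p53 target, did not pass 2-fold in the scaled values. Its relative signal was 6.07 with vehicle and 7.46 after AOM in *Pla2g3*+/+, and 6.32 and 7.11 in the pools labelled *Pla2g3*-/-. The log2 differences of AOM over vehicle were 0.30 and 0.17, against an error of 0.20. They depended on the scaling, at 0.68 and 0.45 with quantile normalization and 1.32 and 1.01, past 2-fold, without scaling.

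*Cdkn1a* encodes p21, the inhibitor of cyclin-dependent kinases that carries out much of the arrest by p53. Its brightest probe, for both RefSeq transcripts, was printed in 10 spots on each array. The relative signal was 6.00 with vehicle and 5.04 after AOM in *Pla2g3*+/+, and 5.53 and 7.54 in the pools labelled *Pla2g3*-/-. The 10 spots ranged from 4.77 to 5.33 on the *Pla2g3*+/+ AOM array and from 7.29 to 7.82 on that of the pool labelled *Pla2g3*-/-. Repeat spots of these arrays thus did not overlap, but they are repeats of 1 pool and do not measure the spread between mice. The log2 difference of AOM over vehicle was -0.25 in *Pla2g3*+/+, or 0.08 with quantile normalization and 0.77 without scaling, and 0.45 in the pools labelled *Pla2g3*-/-, or 1.29 without scaling. After AOM the pool labelled *Pla2g3*-/- exceeded *Pla2g3*+/+ by 0.58 on the log2 scale.

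Other probes of *Cdkn1a* gave other values. The third probe carries the accession of the transcript from the upstream start, the one whose window is printed above with the p53 pair. Its relative signal in *Pla2g3*+/+ was 0.0399 with vehicle and 0.0985 after AOM, a 2.47-fold difference. For the pools labelled *Pla2g3*-/- it was 0.0200 with vehicle, not well above background, and 0.0179 after AOM. The *Pla2g3*+/+ AOM array was the highest, 5.50-fold above the pool labelled *Pla2g3*-/- after AOM, so this probe and the brightest one pointed opposite ways. The second probe, which carries an Ensembl transcript, read 0.0889 and 0.0975 in *Pla2g3*+/+ and 0.0606 and 0.134 in the pools labelled *Pla2g3*-/-. Its log2 difference of AOM over vehicle in the latter pools was 1.14, past 2-fold. Between the genotypes after AOM, the brightest and the second probe had the same direction, with log2 differences of 0.58 and 0.45. The third, the dimmest, was the one that turned, at -2.46, and the mean over probes was -0.47.

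*Ccng1*, cyclin G1, a p53 target that recruits a phosphatase to Mdm2, had the smallest difference of the 10 between AOM and vehicle in *Pla2g3*+/+ and between the genotypes after AOM. The relative signal was 2.80 with vehicle and 2.52 after AOM in *Pla2g3*+/+, and 2.97 and 2.53 in the pools labelled *Pla2g3*-/-. The log2 difference between the genotypes after AOM was 0.01, or -0.16 without scaling. Those of AOM over vehicle were -0.15, or 0.03 with quantile normalization and 0.87 without scaling, and -0.23, or 0.62 without scaling.

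*Phlda3*, a p53 target that restrains the kinase Akt, stood higher after AOM. Its relative signal was 1.47 with vehicle and 4.14 after AOM in *Pla2g3*+/+, a 2.81-fold difference. The pools labelled *Pla2g3*-/- read 1.97 with vehicle and 2.68 after AOM, a 1.36-fold difference. The *Pla2g3*+/+ arrays were the lowest and the highest of the 4, and the other 2 lay between them. This call in *Pla2g3*+/+ was kept under all 10 alternatives, at log2 differences of 1.46 to 2.51.

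*Gdf15*, a secreted stress cytokine of the transforming growth factor family, likewise had its lowest and its highest level on the *Pla2g3*+/+ arrays. The relative signal was 0.720 with vehicle and 1.504 after AOM in *Pla2g3*+/+, and 1.09 and 1.06 in the pools labelled *Pla2g3*-/-. The difference was 2.09-fold in *Pla2g3*+/+, just past the threshold, and was a log2 of 0.97 with normexp correction and quantile normalization together. In the pools labelled *Pla2g3*-/- the log2 difference was -0.03, or 0.81 without scaling.

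*Trp53inp1*, which promotes the pro-apoptotic activity of p53 and autophagy, did not pass 2-fold in any comparison of the scaled values. Its brighter probe read 3.19 and 4.87 in *Pla2g3*+/+ and 3.03 and 3.85 in the pools labelled *Pla2g3*-/-, with vehicle and after AOM. The dimmer probe read 0.522 and 0.894, and 0.536 and 0.628. Both probes were highest in *Pla2g3*+/+ after AOM. Without scaling the log2 differences of the brighter probe for AOM over vehicle were 1.63 and 1.19, past 2-fold in both genotypes.

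*Bax*, the pro-apoptotic member of the Bcl-2 family that permeabilizes mitochondria, was the one gene of the 10 that passed 2-fold after AOM in both genotypes in the scaled values. Its relative signal was 5.00 with vehicle and 0.980 after AOM in *Pla2g3*+/+. The pools labelled *Pla2g3*-/- read 5.69 with vehicle and 0.911 after AOM. Both vehicle arrays were high and both AOM arrays low. The difference was 5.10-fold lower in *Pla2g3*+/+ and 6.24-fold lower in the pools labelled *Pla2g3*-/-, with log2 differences of -2.35 and -2.64 and an error of 0.20. Of all genes with a difference, 1041 of 21774 were as low or lower in the first comparison and 478 of 20612 in the second. Without scaling *Bax* stayed over 2-fold lower in both, and *Mdm2*, *Phlda3*, *Trp53inp1* and *Cdkn2a* were over 2-fold higher in both. Of all genes, 6.64% and 4.38% were over 2-fold lower without scaling in the first and second comparison, and 42.8% and 36.7% higher. The call of *Bax* held under all 10 alternatives in both genotypes, at log2 differences of -2.38 to -1.33 and of -2.65 to -1.80. *Bax* was read by 1 probe (mm9 chr7:52717122-52717181), with no other on the array to set beside it. Between the genotypes the level of *Bax* differed by 1.14-fold with vehicle and 1.08-fold after AOM.

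**Figure D3:**
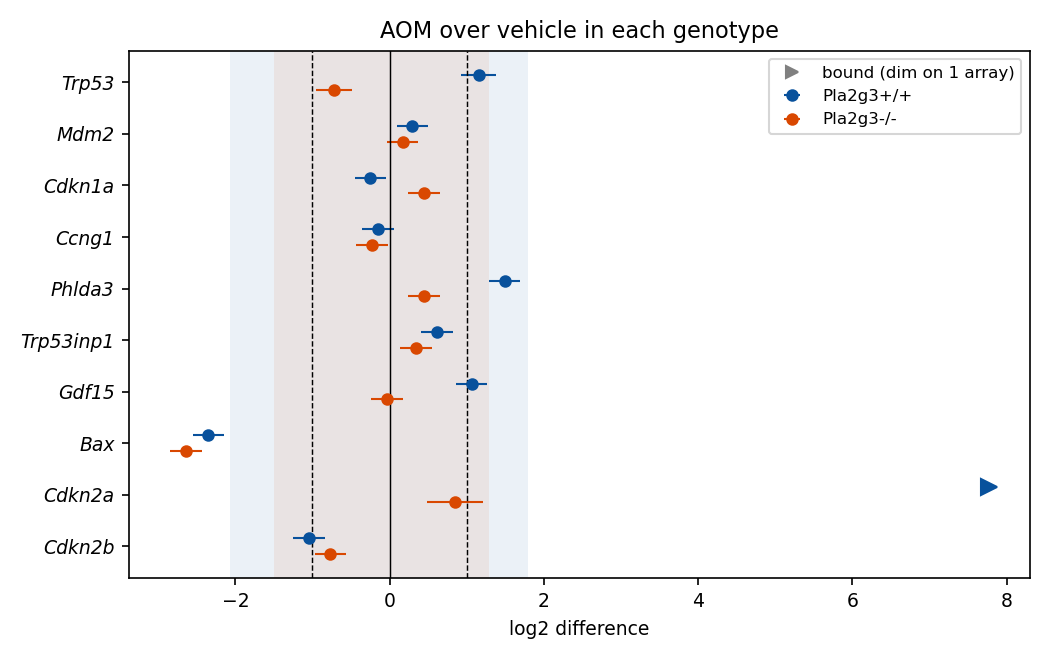
Log2 difference of AOM over vehicle for the brightest probe of each gene in *Pla2g3*+/+ (blue) and in the pools labelled *Pla2g3*-/- (orange), with the error of Feature Extraction as bars; the triangle is a lower bound, dashed lines mark 2-fold, and the shaded bands hold the middle 90% of all genes in each comparison. *Bax* lay below -2 in both, *Cdkn2a* at 7.77 or more in *Pla2g3*+/+ and at 0.85 in the other pools, and *Trp53* at 1.15 and -0.72, the latter 0.12 without scaling.

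Counted together, 4 of the 10 genes were over 2-fold higher after AOM in *Pla2g3*+/+ (*Trp53*, *Phlda3*, *Gdf15* and *Cdkn2a*), against 14.6% of 21959 genes, and 2 were over 2-fold lower (*Bax* and *Cdkn2b*), against 22.8%. The median log2 difference of the 10 was 0.45, and that of all genes was -0.22. In the pools labelled *Pla2g3*-/-, none of the 10 was over 2-fold higher, against 10.0% of 21072 genes, and *Bax* alone was over 2-fold lower, against 16.4%. The median of the 10 was 0.07 and that of all genes -0.15. Of all genes past 2-fold, 39.0% were higher in *Pla2g3*+/+ and 38.0% in the pools labelled *Pla2g3*-/-. Those shares depended on the scaling: they were 49.1% and 47.7% with quantile normalization, 51.3% and 49.7% with normexp correction before it, and 86.6% and 89.3% without scaling, where the median of all genes moved to 0.80 and 0.69.

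The arrays also differed in their cell type markers, and the differences of the 10 genes have to be read beside them. In a whole colon, fewer cells of a type and less RNA per cell cannot be told apart. In *Pla2g3*+/+ after AOM, all 8 smooth muscle markers were over 2-fold lower than with vehicle, and their summed relative signal was 31.2, against 498 to 542 on the other 3 arrays. *Tagln*, the brightest of them, read 194 with vehicle and 11.6 after AOM. All 9 Wnt targets of colon tumors were over 2-fold higher on the same array, with a sum of 68.3 against 7.23 to 8.75. Of 8 mature colonocyte markers, 7 were lower, with a sum of 68.5 against 376 to 715. Leukocyte markers were over 2-fold higher for 4 of 9 and lower for 1, *Itgam*, the brightest of them, at 3.14-fold. Of the 9, 6 lay above 0 and 3 below. The sum of the leukocyte markers was 67.3 against 19.5 to 28.7, and *S100a9* and *S100a8* made up 35.7 and 10.0 of the 67.3. Fibroblast markers were higher for 4 of 6, with a sum of 111 against 36.7 to 81.9, and the 7 epithelial markers summed to 359 against 492 to 533, with a median log2 difference of -0.53 that turned to 0.38 with quantile normalization. All 7 epithelial and 8 colonocyte markers were well above background on all 4 arrays. This was also the array on which *Cdkn2a*, *Trp53*, *Phlda3* and *Gdf15* were high, and the part of cell makeup in their levels was not tested. *Bax* and *Cdkn2b* were lower in relative signal on both AOM arrays than on both vehicle arrays. *Ccng1* was also lower on both, by less than 2-fold, and *Mdm2*, *Phlda3*, *Trp53inp1* and *Cdkn2a* were higher on both. How many of all genes separated in this way was not counted. The colonocyte sums were 68.5 and 376 on the AOM arrays of *Pla2g3*+/+ and of the pool labelled *Pla2g3*-/-, against 681 and 715 with vehicle, and the smooth muscle sums were 31.2 and 498 against 517 and 542. Of the 8 colonocyte markers, 2 were over 2-fold lower and 1 higher after AOM in the pools labelled *Pla2g3*-/-. With quantile normalization none was lower there and 2 were higher. The part of colonocytes and smooth muscle in the levels of *Bax* and *Cdkn2b* was not tested.

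Markers of other tissue were found on several arrays. In the vehicle pool labelled *Pla2g3*-/-, all 9 pancreatic acinar markers were over 2-fold higher than in *Pla2g3*+/+, with a sum of 44.6 against 0.171 to 0.386 on the other 3 arrays. The 7 squamous markers summed to 19.2 in the AOM pool labelled *Pla2g3*-/-, of which *Krt5* made up 15.3, against 1.33 to 2.74 on the other arrays. After AOM 3 of 6 squamous markers with a value were over 2-fold higher and 2 lower in *Pla2g3*+/+, where *Krt14* was 13.8-fold higher, and 3 of 5 were higher and 1 lower in the pools labelled *Pla2g3*-/-. Between the genotypes after AOM, only *Krt5* of these was over 2-fold higher in the pool labelled *Pla2g3*-/-, and *Krt4* was at least 7.33-fold lower. The part of such tissue in the levels of the 10 genes was not tested.

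The comparison of genotypes asked whether the pathway differed between *Pla2g3*+/+ and the pools labelled *Pla2g3*-/-. With vehicle, none of the 10 genes passed 2-fold in either direction, against 2.20% of 20864 genes higher and 1.52% lower. *Cdkn2a* came nearest, at least 1.94-fold higher in the pool labelled *Pla2g3*-/-, followed by *Trp53* at 1.71-fold and *Gdf15* at 1.51-fold. For *Cdkn2a* the log2 bound was 0.95 and the error of Feature Extraction 0.62. Its dimmer probe was not well above background on either vehicle array. *Phlda3* was 1.34-fold higher, and the brightest probes of the other 6 lay within log2 differences of -0.32 to 0.19. The second probes of *Cdkn2b* and *Cdkn1a* lay at -0.60 and -0.55, and the third of *Cdkn1a* at -0.81 or lower. The middle 90% of all genes lay between -0.45 and 0.45.

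After AOM, *Cdkn2a* and *Trp53* were over 2-fold lower in the pool labelled *Pla2g3*-/-, against 12.6% of 21671 genes, and none of the 10 was over 2-fold higher, against 14.3%. *Phlda3* was 1.54-fold lower and *Gdf15* 1.42-fold lower. The median of the 10 was -0.22 and that of all genes 0.03. *Trp53*, *Phlda3* and *Gdf15* thus lay on opposite sides of 0 with vehicle and after AOM, each time by over 2 errors of Feature Extraction. *Cdkn2a* (at least 0.95 and -5.97), *Cdkn1a* (-0.12 and 0.58), *Bax* (0.19 and -0.10) and *Mdm2* (0.06 and -0.07) did so too, but not beyond 2 errors both times. These differences between the treatments were not tested. *Cdkn2b*, *Mdm2* and *Bax* lay between -0.10 and -0.05 and *Ccng1* at 0.01, or -0.16 without scaling, within the error of Feature Extraction. Scaled by the median, *Cdkn2b* and *Mdm2* lay at 0.02 and 0.0047.

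**Figure D4:**
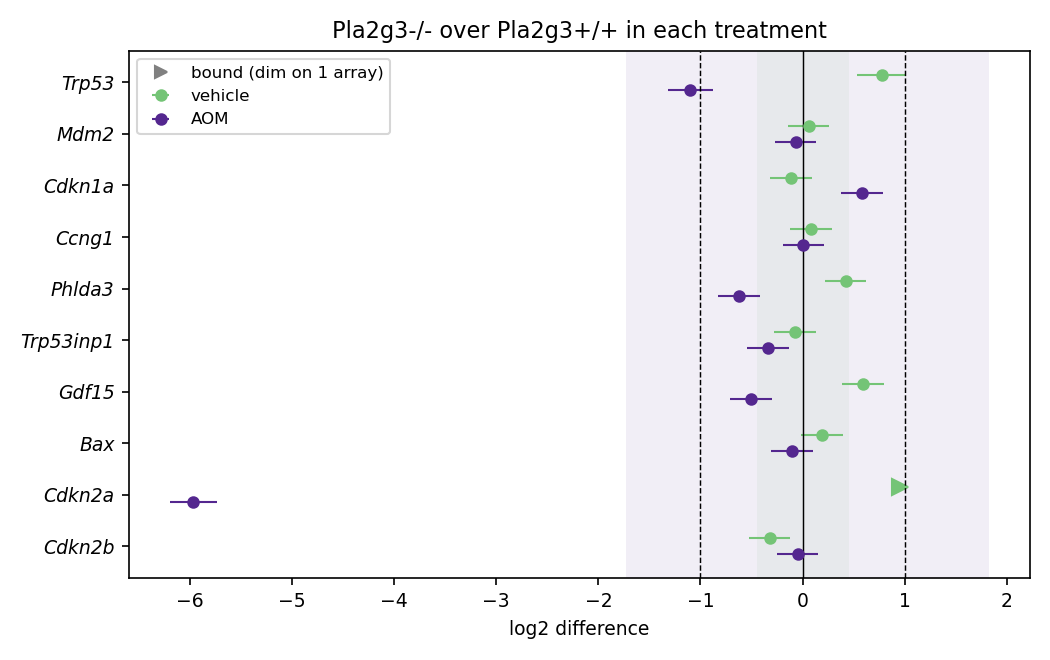
Log2 difference of the pool labelled *Pla2g3*-/- over *Pla2g3*+/+ for the brightest probe of each gene with vehicle (green) and after AOM (purple), with the error of Feature Extraction as bars; the triangle is a lower bound, dashed lines mark 2-fold, and the shaded bands hold the middle 90% of all genes. *Cdkn2a* lay at 0.95 or more with vehicle and at -5.97 after AOM. *Trp53*, *Phlda3* and *Gdf15* lay above 0 with vehicle and below 0 after AOM, each time by over 2 errors, and *Bax* and *Mdm2* did so by less. *Cdkn1a* crossed 0 the other way.

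Other genes of the pathway were taken from lists and counted in the same way, to be read beside the shares of all genes. These were 14.6% higher and 22.8% lower after AOM in *Pla2g3*+/+, 10.0% and 16.4% in the pools labelled *Pla2g3*-/-, and 14.3% and 12.6% between the genotypes after AOM. The counts also depended on the scaling, and where a count given here moved by over 1.5 times its other values follow it.

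Of 10 genes that activate p53 or signal DNA damage, 4 were over 2-fold higher after AOM in *Pla2g3*+/+ and none lower, with a median log2 difference of 0.79. The higher genes numbered 8 without scaling and 2 with normexp correction and quantile normalization together, called normexp below. *Trp53bp1*, which binds damaged chromatin, was 2.95-fold higher, and the damage kinases *Atm* and *Atr* were 2.44- and 2.41-fold higher. Of 9 with a value in the pools labelled *Pla2g3*-/-, 2 were over 2-fold higher, or 1 with normexp and, of 8 with a value, 6 without scaling. Between the genotypes after AOM, *Trp53bp1* was 2.27-fold lower in the pool labelled *Pla2g3*-/-, a call lost with normexp (-0.95), while the kinase *Hipk2* (-0.76) and the acetyltransferase *Ep300* (0.53) did not pass 2-fold.

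Among 12 inhibitors and relatives of p53, 2 were over 2-fold higher in *Pla2g3*+/+ after AOM, a share close to that of all genes, and 7 without scaling. The 2 were *Tbx3* and *Tbx2*, transcription factors known to repress the *Cdkn2a* locus, at 7.80- and 4.11-fold. Both were lower in the pool labelled *Pla2g3*-/- after AOM, by 10.9- and 2.09-fold, the latter lost when scaled by the median (-0.99) and with normexp (-0.76). *Tbx3*, *Tbx2* and *Cdkn2a* were thus high on the same array. *Mdm4*, the partner of Mdm2, had a log2 difference of 0.82 in *Pla2g3*+/+, or 1.84 without scaling, and 1.09 in the pools labelled *Pla2g3*-/-, or 0.85 with normexp.

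Of 32 other p53 target genes, 12 were over 2-fold higher and 6 lower after AOM in *Pla2g3*+/+, with a median of 0.61. The lower genes numbered 3 with quantile normalization, 2 with normexp and 1 without scaling, while the higher numbered 12, 11 and 18. *Thbs1*, thrombospondin, was 8.90-fold higher. *Rprm*, the cell cycle arrest factor reprimo, was 17.8-fold lower. For the pools labelled *Pla2g3*-/-, 6 of 31 were higher and 2 lower, or 3 higher with normexp and 19 higher and 1 lower without scaling, and *Rprm* again had a log2 difference of -3.22. Between the genotypes after AOM, 6 of 32 were over 2-fold higher and 5 lower in the pool labelled *Pla2g3*-/-, with a median of -0.07, or 0.01 when scaled by the median, and 3 were higher and 8 lower without scaling. *Psrc1* was 8.64-fold and *Thbs1* 5.12-fold lower. The shares of these genes past 2-fold between the genotypes in the scaled values lay near those of all genes.

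Of 15 other inhibitors of the cell cycle, 1 was over 2-fold higher and 3 lower after AOM in *Pla2g3*+/+, with a median of -0.48. Without scaling 3 were higher and 1 lower, with a median of 0.54. *Klf4*, a factor of differentiated colonocytes that induces *Cdkn1a*, was 5.87-fold lower, and *Cdkn1b*, which encodes p27, was 2.84-fold lower, a call lost without scaling (-0.48). *Cdkn1c*, which encodes p57, was 2.33-fold higher. After AOM the pool labelled *Pla2g3*-/- stood 9.95-fold above *Pla2g3*+/+ in *Klf4* and 2.82-fold above it in *Rbl2*, a relative of the retinoblastoma gene, and 5.67-fold below it in *Cdkn1c*. The relative signal of *Klf4* was 24.8 and 23.6 on the vehicle arrays of *Pla2g3*+/+ and of the pool labelled *Pla2g3*-/-, and 4.23 and 42.0 after AOM. It was thus lowest on the *Pla2g3*+/+ AOM array, as were 7 of the 8 colonocyte markers, whose part was not tested.

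Of 11 genes of G1 with a value, among them the cyclins and kinases that these inhibitors act on, 3 were over 2-fold higher after AOM in *Pla2g3*+/+ and none lower, with a median of 0.90. The higher genes numbered 6 with quantile normalization and 9 without scaling. *Myc* was 5.43-fold and *Ccnd1*, cyclin D1, 3.60-fold higher, and *Cdk6* at least 2.55-fold higher, the last lost with normexp. In the pool labelled *Pla2g3*-/- after AOM, 6 of the 11 were over 2-fold lower than in *Pla2g3*+/+ and none higher, with *Ccnd1* 4.51-fold, *Myc* 3.20-fold and *Cdk6* at least 3.01-fold lower. With normexp 4 were lower, *Cdk6* no longer among them, and the median was -0.39 in place of -1.16. Of 15 proliferation genes, 6 were over 2-fold higher after AOM in *Pla2g3*+/+, led by *Top2a*, at 0.370 with vehicle and 1.48 after AOM, *Plk1* at 2.87-fold and *Mki67* at 2.73-fold. Without scaling 13 of the 15 were higher. None of the 15 passed 2-fold in the pools labelled *Pla2g3*-/-, while 1 was higher with quantile normalization or normexp and 3 without scaling. Between the genotypes after AOM, 4 of them were over 2-fold lower, with *Bub1* at 2.50-fold, *Mcm2* at 2.33-fold and *Mcm5* at 2.13-fold, and 7 were lower with quantile normalization and 6 without scaling. The call of *Bub1* was lost with normexp (-0.82). High *Cdkn2a* and high *Top2a* and *Plk1* were measured in the same pool. *Mki67* read 7.91 in that pool but 8.63 in the AOM pool labelled *Pla2g3*-/-. Its log2 difference over vehicle in the latter pools was 0.996, just under 2-fold.

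*Bax* was set beside 11 other genes of its family with a value. In *Pla2g3*+/+ after AOM, 4 were over 2-fold higher and 1 lower, with a median of -0.04, or 0.04 with quantile normalization and 0.98 without scaling. *Bcl2l11* and *Bmf*, which encode the BH3-only proteins Bim and Bmf, were 3.87- and 3.33-fold higher, the former lost with normexp (0.81), and *Bad* was 2.69-fold lower. *Bad* was also 1.40 lower on the log2 scale, past 2-fold, in the pools labelled *Pla2g3*-/-, and no other of the 11 passed 2-fold there, while 4 were higher without scaling. The calls of *Bad* ended with normexp (-0.91 and -0.98) and without scaling (-0.41 and -0.55), and that in *Pla2g3*+/+ also with quantile normalization (-0.94). After AOM *Bmf*, *Bok* and *Bcl2* were 3.69-, 3.44- and 2.36-fold lower in the pool labelled *Pla2g3*-/- than in *Pla2g3*+/+, the last lost with normexp (-0.88).

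**Figure D5:**
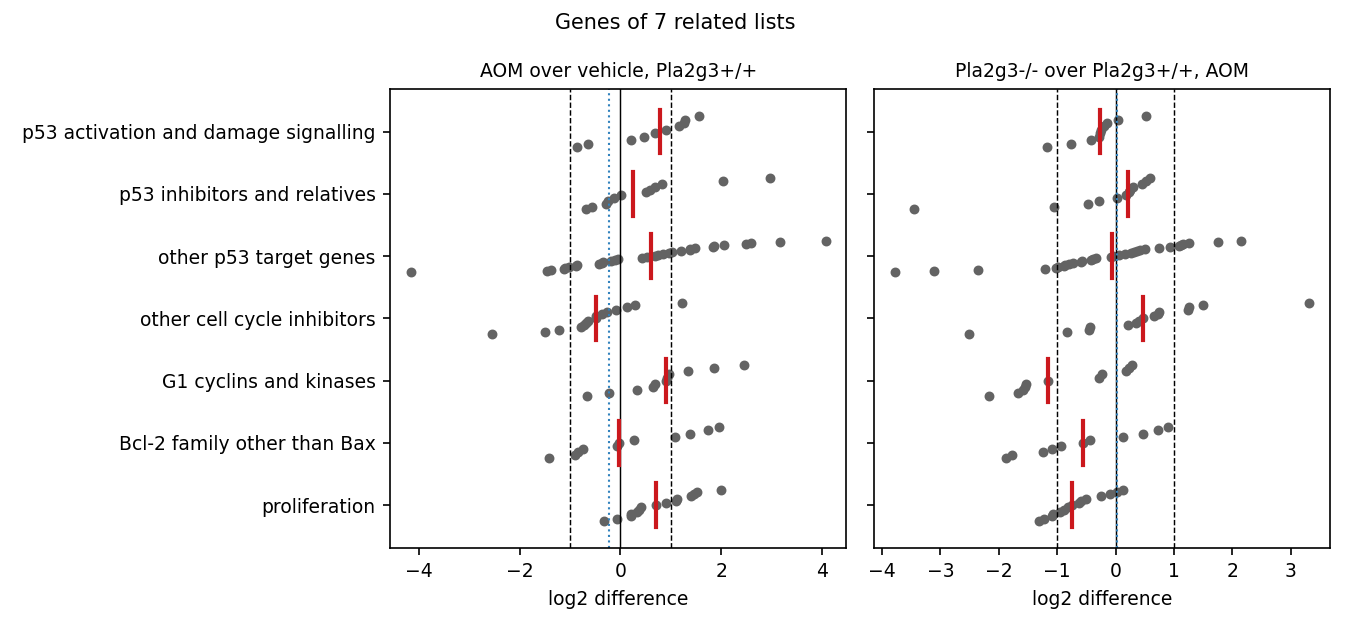
Log2 differences of AOM over vehicle in *Pla2g3*+/+ (left) and of the pool labelled *Pla2g3*-/- over *Pla2g3*+/+ after AOM (right) for the genes of 7 related lists; each point is a gene, red bars are list medians, the dotted line is the median of all genes and dashed lines mark 2-fold. The G1 list had medians of 0.90 and -1.16, and *Rprm*, among the other p53 target genes, lies at -4.15 on the left.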

How the data were processed

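Total RNA from the colon (27.7 ng per labelling) was labelled with Cy3 and hybridized to 1-color Whole Mouse Genome arrays of 1 slide, 1 array per pool. The deposited array files hold spot intensity from Agilent Feature Extraction 11.5.1.1, background-subtracted and not scaled between arrays, and the authors' table of processed values is a ratio of that intensity to a constant of the array. Control and outlier spots were left out, repeat spots averaged as log2 intensity, and the 75th percentile of the array subtracted. Genes were taken by the gene name in the files, with the brightest probe over the 4 arrays for each gene and every probe reported for the 10. Differences were read at 2-fold. The number of arrays limits the precision.

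The members and the lists were chosen with earlier results of these data known. Named were the 10 genes with every probe, the up to 3 genes per list with the largest difference for AOM in *Pla2g3*+/+ and for the genotypes after AOM, the brightest gene of a marker list, and *Pla2g3*. 1 gene that this rule takes is counted in its list but not reported here. *Krt5*, *Krt14*, *Krt4*, *S100a8*, *S100a9* and the values of a named gene in a further comparison were added after they were seen. Alternatives were quantile, median and no scaling, normexp with an offset of 50 and quantile normalization (limma 3.58.1, R 4.3.3), no filter on dim probes, only genes detected on both arrays of a comparison, the mean over probes, the dimmest probe, 1.5-fold and the deposited table. Counting was tested on simulated data. Python 3.11.15, pandas 2.3.3 and numpy 2.4.6 were used.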

Additional observations from a re-analysis of the deposited data

Results flagged for a closer look

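The difference of AOM over vehicle in *Trp53* had opposite signs in the genotypes, each beyond 2 errors of Feature Extraction: 1.15 in *Pla2g3*+/+ and -0.72 in the pools labelled *Pla2g3*-/-, which differ by -1.88. Without scaling the second was 0.12, with the sign of the first, and with normexp correction and quantile normalization together it was -0.33, within 2 errors. The same 4 values give the same -1.88 when the genotypes are compared with vehicle and after AOM. The difference between the genotypes also had opposite signs with vehicle and after AOM, each beyond 2 errors, for *Phlda3* and *Gdf15*. It was 0.42 and -0.63 for *Phlda3*, a difference of -1.05, and 0.59 and -0.50 for *Gdf15*, a difference of -1.10. None of these differences was tested, since each group was 1 array.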

How the results depend on the processing

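Of the counts of the 10 genes past 2-fold under the alternatives, 68 stayed within 1.5 times the reported count and 12 did not. For AOM over vehicle in *Pla2g3*+/+, the genes higher numbered 2 with normexp and quantile normalization together, called normexp here (4 reported), and the genes lower 1 each with quantile normalization, no scaling and normexp (2 reported). Of all genes, 9.39% were higher with normexp, and 17.5%, 6.64% and 8.93% lower in these settings, in that order. In the pools labelled *Pla2g3*-/-, 5 were higher without scaling and 1 at 1.5-fold (none reported), and 3 lower at 1.5-fold (1 reported). Between the genotypes with vehicle, 1 was higher with quantile normalization, with scaling by the median and without the filter on dim probes, *Cdkn2a* each time, and 3 at 1.5-fold (none reported). Of all genes, 2.48%, 2.29%, 3.36% and 4.32% were higher, in that order. After AOM 1 was lower with normexp (2 reported). The cause was not tested. *Cdkn2a* in *Pla2g3*+/+ had no value when only genes well above background on both arrays were kept. No call changed sign. No paired analysis was possible because each group was 1 array and the labels carry no replicate numbers. Signal over background limits *Cdkn2a* on the vehicle arrays, the third *Cdkn1a* probe and *Trp53*.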
